A study of Mus musculus with 16 samples.

Results

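The B cell identity genes described here are Pax5, Spib, Pou2af1, Bcl6, Ms4a1, Fcer2a, Cd22, Cd79a and Cd79b. They were taken by symbol from a table of 54838 genes, and all 9 were among the 14510 genes with enough counts to be tested between fractions. RNA had been sequenced from C57BL/6 mouse spleen in 8 size-selected and 8 whole spleen samples. The size-selected samples are what a cell strainer retained after enzymatic digestion that ended with Dispase II, and after red blood cell lysis. The labels name the source of this material as spleen glia. They give the same protocol for whole spleen, whose own preparation is not described separately, and they give no age, treatment or allele for either group. Each of the 8 numbers 407, 408, 427, 435, 436, 445, 447 and 460 labels 1 sample of each group. The first 4 of these numbers are male and the last 4 are female. The labels do not say whether a number is 1 mouse, so the tests set each difference against the spread between these samples. The main test does not use the pairing by number.

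B cells are the most abundant lymphocytes of the spleen and lie mainly in its follicles and marginal zones. Their identity is held by a set of transcription factors, and they recognise antigen through a surface immunoglobulin that signals through a heterodimer of the CD79A and CD79B proteins. Co-receptors such as CD22 restrain that signal, and surface proteins such as CD20 and CD23 are used to recognise mature B cells.

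Of the 9 genes, 7 fell in the size-selected samples and 0 rose (edgeR quasi-likelihood test, Benjamini-Hochberg adjusted p under 0.05 over all genes tested). Over all genes tested, 30.4% were called lower and 37.5% higher. The decreases spanned a wide range, from Pax5, which retained 17.9% of its whole spleen level, to Ms4a1, which retained 61.6%. Bcl6 and Cd22 did not pass the test. With the number as a replicate block Cd22 passed as well, which made 8 of 9, while 31.3% of all genes were called lower. The median log2 fold change of the 9 genes was -1.18, against 0.05 over all genes tested. In bulk RNA, fewer B cells and less RNA per B cell cannot be told apart.

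A feature of the deposited values bears on 4 of the 9 genes. In the size-selected columns, Pax5, Spib, Fcer2a and Cd79a belong to 1874 genes whose estimated counts had been multiplied by a constant between 0.770 and 0.858, which differs by sample and which neither labels nor file headers mention. The other 5 genes carry no such constant. The values below are as deposited, and restored values have the constants divided out. The number 427 samples stood apart from their groups in several marker lists, and results without this number are given with the size-selected samples. On restored counts 7 of 9 fell, as did 30.4% of all genes, with a median log2 fold change of -1.04.

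Promoters of 7 of the 9 genes were found in RefSeq (GRCm38.p6), with 10 start sites in all. Cd79b and Ms4a1 were not among them. The 250 bases before the start of 3 genes that moved to different degrees are shown, for Cd79a, which fell strongly, for Spib, which fell moderately, and for Bcl6, which did not pass the test. The sequences read 5' to 3' along the gene, and capitals mark exact matches to a searched motif on either strand.
Cd79a (chr7:24897247-24897496, plus strand): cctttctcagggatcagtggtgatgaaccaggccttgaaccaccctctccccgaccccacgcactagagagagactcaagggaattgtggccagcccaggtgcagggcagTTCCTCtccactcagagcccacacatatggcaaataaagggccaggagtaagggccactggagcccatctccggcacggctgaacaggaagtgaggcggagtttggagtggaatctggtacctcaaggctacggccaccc
Spib (chr7:44532072-44532321, minus strand): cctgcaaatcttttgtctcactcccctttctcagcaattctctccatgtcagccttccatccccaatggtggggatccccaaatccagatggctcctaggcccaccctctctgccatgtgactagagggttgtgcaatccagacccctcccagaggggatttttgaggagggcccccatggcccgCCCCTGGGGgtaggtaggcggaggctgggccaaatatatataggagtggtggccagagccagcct
Bcl6 (chr16:23988853-23989102, minus strand): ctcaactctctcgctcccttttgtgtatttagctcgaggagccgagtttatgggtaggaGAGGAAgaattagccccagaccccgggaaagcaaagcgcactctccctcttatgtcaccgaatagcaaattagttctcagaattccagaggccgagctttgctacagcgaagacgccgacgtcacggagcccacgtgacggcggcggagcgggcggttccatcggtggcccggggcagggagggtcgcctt
The Cd79a promoter holds GAGGAA, a core bound by PU.1 and Spi-B, on the minus strand, so it reads TTCCTC here with its first base at -140 from the start. The capitals in Spib are a pair of overlapping matches to CCCNNGGG, the core bound by Ebf1, beginning at -65 and -64. The upstream of the 2 Bcl6 starts has GAGGAA at -191. The other Bcl6 start has TTCCTGGAA, a match to the Bcl6 motif TTCCTNGAA, at -168. Elsewhere, Pou2af1 has GAGGAA at 19 bases after its start, and Cd22 has the Ebf1 core at -48. No match to the octamer ATTTGCAT, which POU factors bind with the Pou2af1 protein, lies in any of the 10 windows. Of 32851 RefSeq promoter windows of 300 bases (250 before and 50 after the start), 28.3% hold GAGGAA, 13.7% CCCNNGGG, 1.74% the octamer and 1.59% the Bcl6 motif.

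**Figure D1:**
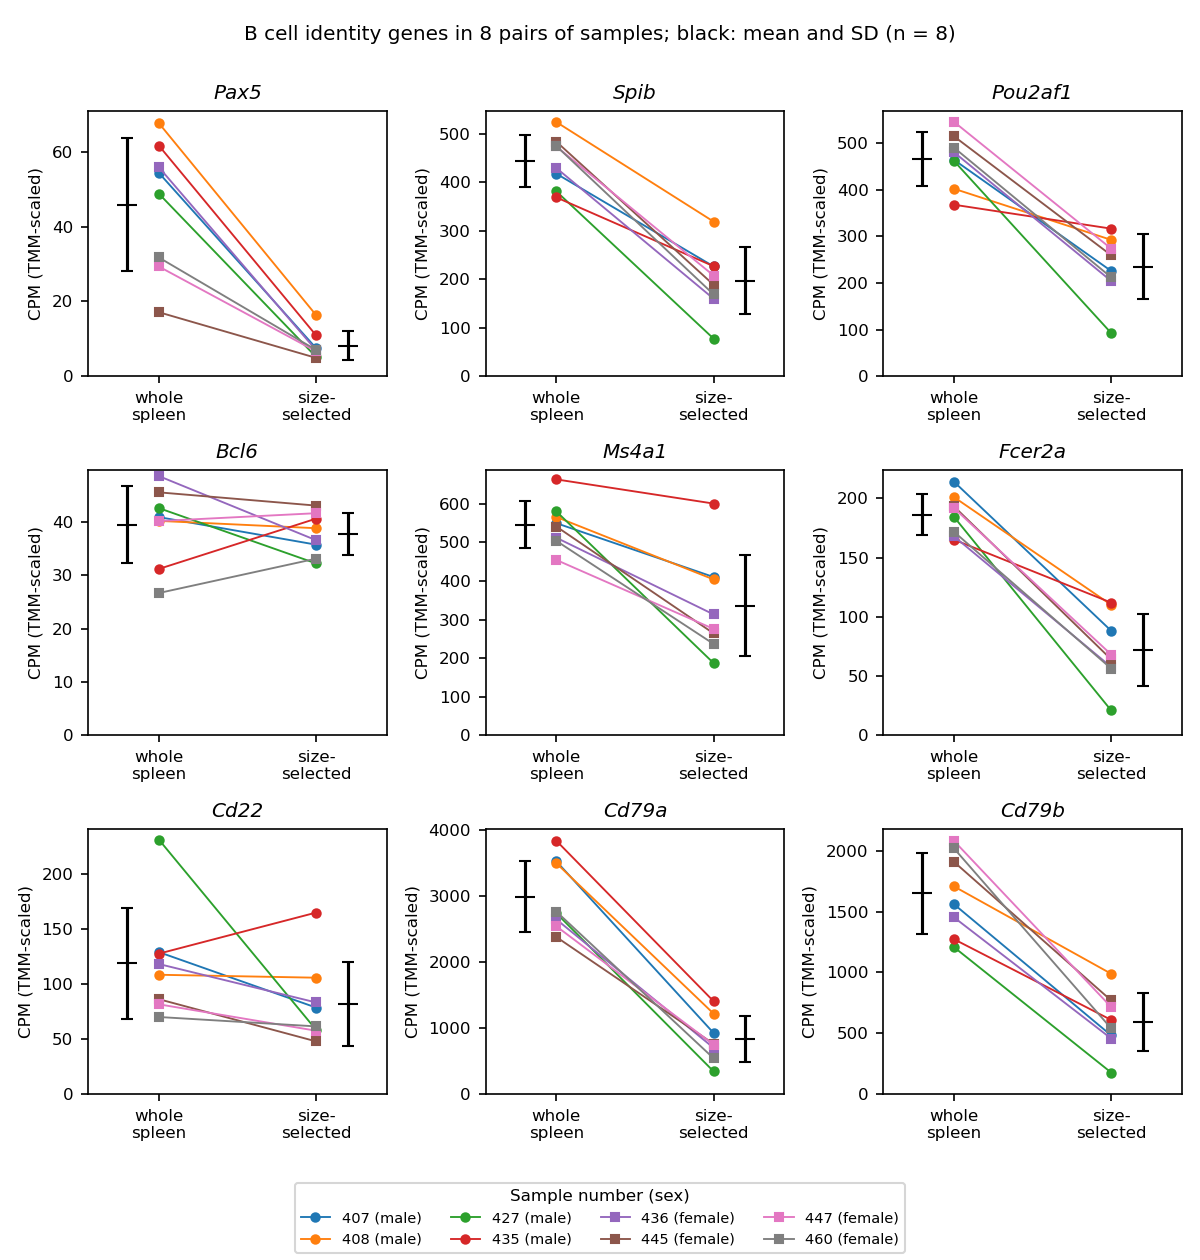
Level of each of the 9 genes (vertical axis, CPM with TMM scaling, from 0) in the 8 whole spleen and 8 size-selected samples. Each line joins the samples of 1 number, circles are male and squares female, and black bars give the mean and SD (n = 8). All lines descend for 7 of the genes, while Bcl6 lines cross and Cd22 rises in number 435.

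Among the transcription factors, Pax5 (ENSMUSG00000014030, chromosome 4, 44524757 to 44710487), the factor that commits lymphoid precursors to the B lineage, fell most. It ranged from 4.90 to 16.3 CPM in the size-selected samples (median 6.99) and from 17.1 to 67.7 CPM in whole spleen (median 51.6). The highest size-selected sample (number 408) lay just below the lowest whole spleen sample (number 445), so the groups did not overlap as deposited. The log2 fold change was -2.48 (edgeR adjusted p 4.61e-07, SE 0.29), and the decrease was seen in 8 of 8 pairs of the same number, from -3.21 to -1.78 on the log2 scale. On restored counts it was -2.24, the highest size-selected sample was 19.0 CPM against a lowest whole spleen sample of 16.8 CPM, and the groups overlapped. Within whole spleen Pax5 was uneven: numbers 445, 447 and 460, all female, had 17.1, 29.3 and 31.7 CPM, and the other 5 samples had 48.8 to 67.7 CPM. The Pax5 locus overlaps genes on the opposite strand. One of them, 5730488B01Rik, shares 636 exonic bases with it and had 14.3 to 36.4 estimated counts in the size-selected samples and 32.5 to 124 in whole spleen. Another, Gm12462, shares 125 exonic bases and had at most 24 counts in a sample. Whether counting used the strand is not given in the sources used here, so the Pax5 values are uncertain to that extent.

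Spib (ENSMUSG00000008193, chromosome 7, 44525993 to 44532071) encodes Spi-B, an Ets factor of B cells and plasmacytoid dendritic cells. It ranged from 77.5 to 319 CPM in the size-selected samples (median 198) and from 369 to 525 CPM in whole spleen (median 452). The groups did not overlap, and number 427 was the lowest size-selected sample. The log2 fold change was -1.18 (SE 0.19, edgeR adjusted p 2.36e-05) and -0.93 on restored counts. After restoration the highest size-selected sample was 371 CPM and the lowest whole spleen sample 362 CPM, so the groups overlapped and 7 of 8 size-selected samples lay below whole spleen.

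Pou2af1 (ENSMUSG00000032053, chromosome 9, 51213708 to 51240080) encodes OBF-1, the coactivator that joins POU factors on octamer sites of immunoglobulin genes. It ranged from 92.5 to 316 CPM in the size-selected samples (median 243) and from 368 to 546 CPM in whole spleen (median 472). Again the groups did not overlap. Its log2 fold change was -0.99 (SE 0.18, edgeR adjusted p 6.86e-05), a retention of 50.3%. The decrease differed between pairs, from -2.32 in number 427 to -0.22 in number 435.

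Bcl6 (ENSMUSG00000022508, chromosome 16, 23965052 to 23988852), the repressor required for germinal centres and also used by other haematopoietic cells, had similar values in both groups. It ranged from 32.2 to 43.1 CPM in the size-selected samples (median 37.7) and from 26.7 to 48.6 CPM in whole spleen (median 40.6). The whole spleen range enclosed the size-selected range. The log2 difference was -0.07 (SE 0.12, edgeR adjusted p 0.628), with a 95% interval from -0.31 to 0.18, and it was negative in 5 of 8 pairs. With library totals in place of TMM scaling it was 0.060, a change of sign, while the median of all genes shifted by 0.13. Of the 9 genes, Bcl6 also had the narrowest spread in the size-selected samples relative to its mean, 37.7 ± 3.97 CPM (SD, n = 8).

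Cd79a and Cd79b encode the signalling chains of the B cell receptor. Cd79a (ENSMUSG00000003379, chromosome 7, 24897381 to 24902197) ranged from 344 to 1405 CPM in the size-selected samples (median 755) and from 2378 to 3834 CPM in whole spleen (median 2751). Its groups were separated by a wide gap. The log2 fold change was -1.85 (SE 0.22, edgeR adjusted p 7.12e-07), or -1.60 on restored counts, and the groups did not overlap on either scale. Cd79b (ENSMUSG00000040592, chromosome 11, 106311341 to 106314762) ranged from 178 to 989 CPM in the size-selected samples (median 575) and from 1209 to 2082 CPM in whole spleen (median 1635). It fell in 8 of 8 pairs, with a log2 change of -1.48 (edgeR adjusted p 2.49e-05, SE 0.24), and the groups did not overlap.

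Fcer2a (ENSMUSG00000005540, chromosome 8, 3681737 to 3694175) encodes CD23, the low-affinity IgE receptor of follicular B cells, which follicular dendritic cells can also carry. It ranged from 20.9 to 112 CPM in the size-selected samples (median 66.1) and from 165 to 214 CPM in whole spleen (median 188). The whole spleen samples were close together, while the size-selected samples were spread widely between number 427 at the bottom and number 435 at the top, without reaching whole spleen. The log2 fold change was -1.37 (SE 0.23, edgeR adjusted p 3.35e-05), and -1.12 on restored counts, again with no overlap.

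Ms4a1 (ENSMUSG00000024673, chromosome 19, 11249675 to 11266241) encodes CD20. It ranged from 187 to 601 CPM in the size-selected samples (median 294) and from 455 to 664 CPM in whole spleen (median 546). The sample of number 435 overlapped whole spleen, and the other 7 size-selected samples lay below it. The log2 fold change was -0.70 (SE 0.18, edgeR adjusted p 0.00244), and 8 of 8 pairs were lower, number 435 by only 0.14 on the log2 scale.

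Cd22 (ENSMUSG00000030577, chromosome 7, 30865402 to 30880342) encodes a sialic acid-binding lectin that inhibits B cell receptor signalling. It ranged from 48.0 to 165 CPM in the size-selected samples (median 70.2) and from 70.2 to 232 CPM in whole spleen (median 114). The groups overlapped, and 4 of 8 size-selected samples lay below the lowest whole spleen sample. The log2 difference was -0.53 (SE 0.26, edgeR adjusted p 0.0759), with a 95% interval from -1.07 to 0.01. The difference was negative in 7 of 8 pairs and positive in number 435. With the number as a replicate block Cd22 passed the test at -0.54 (SE 0.20, edgeR adjusted p 0.0303). Without number 427, whose whole spleen sample had the highest Cd22 level, the difference was -0.26, and without number 435 it was -0.74 (edgeR adjusted p 0.0117). Cd22 shares 479 exonic bases with Gm29439 on the opposite strand, which had at most 3.43 counts in a sample.

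**Figure D2:**
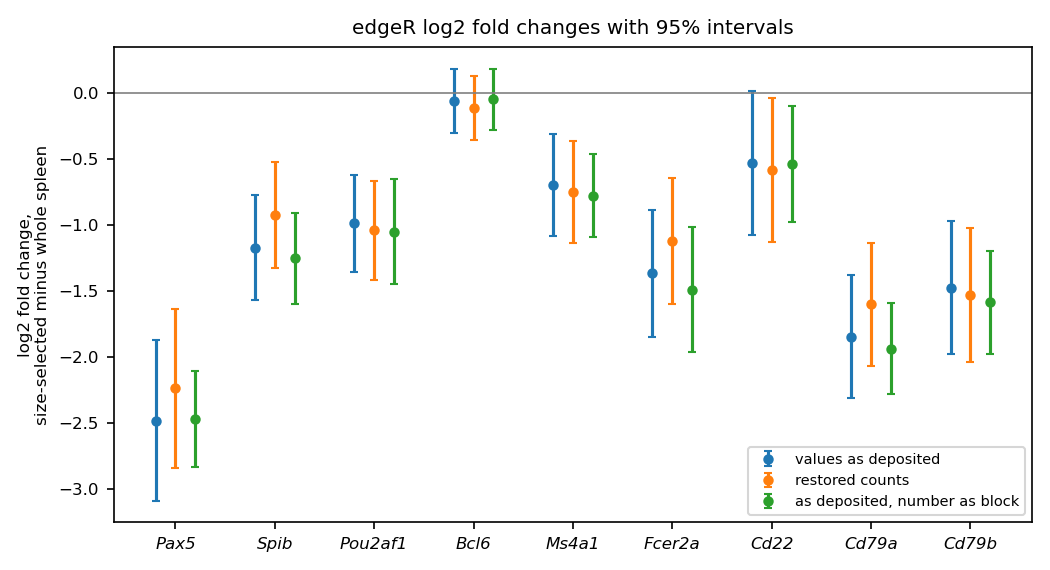
edgeR log2 fold change of each gene, size-selected minus whole spleen (vertical axis), with 95% intervals, from deposited values, from restored counts and with the number as a block. Pax5 lies lowest at -2.48, the intervals of Bcl6 and that of Cd22 from deposited values include 0, and restoration moves Pax5, Spib, Fcer2a and Cd79a toward 0.

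Across the 9 genes, 6 had every size-selected sample below every whole spleen sample, and 4 did so on restored counts, where Pax5 and Spib overlapped. The background is 11.6% of all genes tested as deposited and 11.2% on restored counts. As deposited, the 7 genes that fell were lower in 8 of 8 pairs, as were 22.2% of all genes tested. In the authors' deposited table of differential genes, 0 of the 9 appear among 2201 genes, and the lowest log2 fold change listed there is 3.50.

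Expressed per kilobase of exon, so that genes can be compared, the order of levels was the same in both fractions: Cd79a, Cd79b, Pou2af1, Spib, Ms4a1, Fcer2a, Cd22, Bcl6 and Pax5. In whole spleen it ran from 2052 ± 373 CPM per kb for Cd79a and 1155 ± 233 for Cd79b to 5.89 ± 1.08 for Bcl6 and 5.17 ± 2.00 for Pax5 (SD, n = 8). Neighbours in this order overlapped for Pou2af1 and Spib and for Bcl6 and Pax5. In the size-selected samples the level ran from 570 ± 237 CPM per kb for Cd79a to 5.63 ± 0.592 for Bcl6 and 0.924 ± 0.426 for Pax5 (SD, n = 8). There Bcl6 and Pax5 no longer overlapped, while Cd79a and Cd79b did, as did each pair of neighbours from Pou2af1 to Cd22.

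The genes did not fall in proportion. Relative to Cd79a within each sample, 6 of 8 log2 ratios were higher in the size-selected samples (exact two-sided permutation test over 12870 splits, adjusted over the 8 ratios). Of all other genes tested, 95.9% were called higher relative to Cd79a by the same test, adjusted over all genes, and 99.6% had a higher mean ratio, so the count of 6 says no more than that Cd79a was among the genes that fell furthest. Among the 8 genes, Bcl6 differed most, by 1.90 in log2 ratio (adjusted permutation p 0.000414), followed by Cd22 at 1.39 (0.000932) and Ms4a1 at 1.16 (0.000414), each higher in 8 of 8 pairs. The unadjusted p for Bcl6 and Ms4a1 was 0.000155, the smallest that 8 against 8 samples can give. Pou2af1 rose by 0.89 and Spib by 0.69 relative to Cd79a, both higher in 8 of 8 pairs, and Fcer2a by 0.43 in 7 of 8 pairs (adjusted permutation p 0.000414, 0.00174 and 0.00539). Pax5 was the only gene with a lower ratio, -0.51, which missed the threshold (adjusted permutation p 0.0597) and was lower in 7 of 8 pairs. The ratio of the receptor chains, Cd79b to Cd79a, differed by 0.35 (adjusted permutation p 0.158). With the number as a block, by exact sign flips of the 8 pair differences, Pax5 had an adjusted p of 0.0234 and Cd79b of 0.0104.

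Because Cd79a carries a constant, these ratios depend on restoration for genes that carry none. On restored counts the Cd79b ratio differed by 0.06 (permutation p 0.809) and was higher in 4 of 8 pairs. The Bcl6, Cd22, Ms4a1 and Pou2af1 differences were 1.60, 1.10, 0.87 and 0.59, and the same 6 ratios passed the test. The Pax5 ratio was -0.51 on restored counts too, since both genes carry the same constant.

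**Figure D3:**
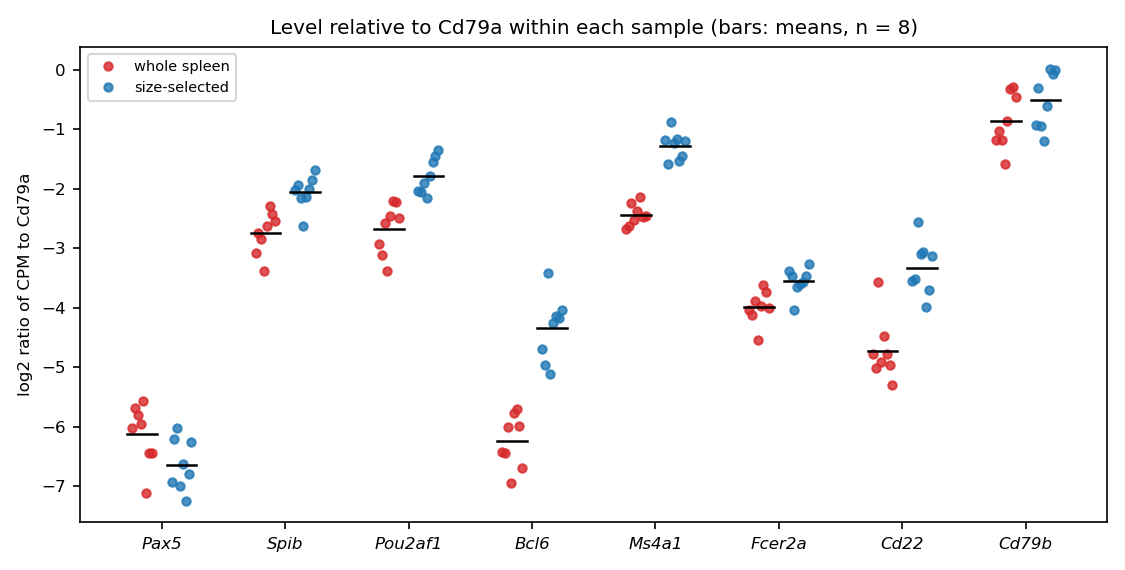
log2 ratio of the CPM of each gene to Cd79a in each sample (vertical axis), whole spleen in red and size-selected in blue, with bars at the means (n = 8). The size-selected means lie above whole spleen for every gene but Pax5, by 0.35 for Cd79b up to 1.90 for Bcl6.

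The size-selected samples differed among themselves in B cell gene level. The summed level of the 9 genes ranged from 996 CPM in number 427 to 3494 CPM in number 408, whereas whole spleen ranged from 5879 CPM, also in number 427, to 7113 CPM, also in number 408. Number 427 was the lowest size-selected sample for 7 of the 9 genes and among the lowest 3 for all 9, and number 435 was the highest for 5. The same sample had the lowest summed level of 12 T cell marker genes, 214 CPM, and number 435 the highest, 811 CPM. Number 427 also had the highest summed level in its group of the follicular dendritic cell markers, 9298 CPM, of the endothelial markers, 1619 CPM, of the plasma cell genes, 1962 CPM, and of the plasmacytoid dendritic cell markers, 466 CPM. In whole spleen the number 427 sample likewise had the highest sums of the follicular dendritic cell, macrophage, fibroblast, endothelial and glia lists, 390, 2668, 66.9, 197 and 27.5 CPM. It also had the highest sums there of 3 lists of B lineage genes: receptor and signalling genes (25951 CPM), marginal zone genes (777 CPM) and plasma cell genes (3416 CPM). The part these other cells play in the B cell values was not tested. Without number 427, 7 of 9 genes were still called lower, as were 29.7% of all genes, with log2 fold changes of -2.40 for Pax5, -1.75 for Cd79a, -1.39 for Cd79b, -1.23 for Fcer2a, -1.08 for Spib, -0.87 for Pou2af1 and -0.60 for Ms4a1.

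**Figure D4:**
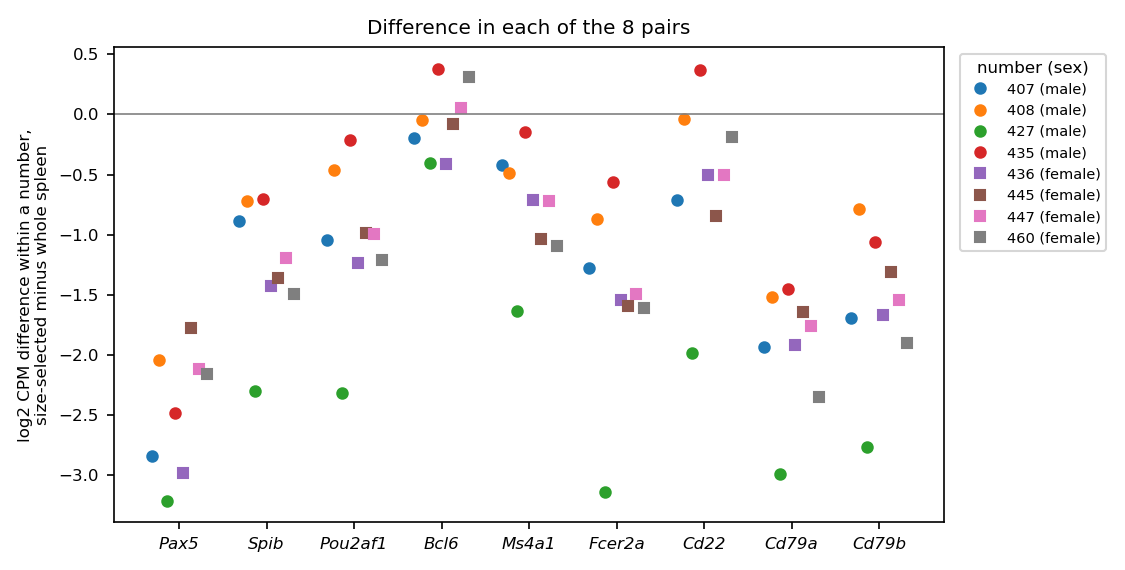
Difference in log2 CPM between the size-selected and the whole spleen sample of the same number (vertical axis) for each gene, 8 points a gene, circles male and squares female. Number 427 is lowest for 8 of the 9 genes, and number 435 lies above 0 for Bcl6 and Cd22.

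Other genes of the B cell programme were compared through lists. Of 13 other transcription factors of B cells, 10 fell and 0 rose, with a median log2 fold change of -0.96. Pou2f2, which encodes the octamer factor Oct-2, fell from a low level (-1.53, SE 0.29, edgeR adjusted p 0.000142), and Ikzf1, which encodes Ikaros, fell by 1.26 on the log2 scale. Spi1, which encodes PU.1 and is also used by myeloid cells, was at -0.76 and Irf4 at -0.71. As deposited, these were the smallest decreases called in this list. Pou2f2, Ikzf1 and Spi1 carry a constant and were at -1.28, -1.01 and -0.51 on restored counts. Irf4 carries none, was at -0.76 there and was no longer among the 2 smallest decreases. Of 18 genes of the receptor, its co-receptors and its signalling, 12 fell and 2 rose, with a median of -0.79. The immunoglobulin genes Ighd and Igkc, whose constant regions form surface receptors, fell most (-1.30 and -1.22). Cd81, a broadly expressed tetraspanin, rose by 0.91, and Fcgr2b, an inhibitory Fc receptor shared with myeloid cells, by 0.36.

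All 11 of the other surface and lineage genes fell, with a median of -1.29. Vpreb3, which encodes a protein associated with the assembling receptor, had the lowest fold change (-2.11, SE 0.25, edgeR adjusted p 5.1e-07). The invariant chain gene Cd74 fell by 1.46, Cxcr5, the follicle homing receptor, by 1.00 and Ralgps2 by 0.68 on the log2 scale. Vpreb3 carries the same kind of constant as Pax5, and its value on restored counts was -1.86. Other genes named from the lists, above and below, also carry constants. Restored values were 1.89 for Prdm1, 4.41 for Clu, 6.58 for Coch, 3.31 for Vwf and 0.82 for Adgre1. Restoration moved Cd74, Cd81, Fas, Cd9, Myof, Mfge8, Dcn and Pecam1 less.

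Lists of B cell states were mixed. Of 7 germinal centre genes tested, 4 fell and 2 rose, with a median of -1.47. Mef2b and Nuggc fell (-1.86 and -1.61) at low levels, with size-selected means of 1.89 and 0.628 CPM. Nuggc reached the filter's count minimum in only 4 of 8 size-selected and 7 of 8 whole spleen samples. The death receptor gene Fas (1.62) and the sphingosine phosphate receptor gene S1pr2 (0.90) rose. Which cells held the RNA of these 2 genes was not tested. Of 6 marginal zone genes, 3 rose and 1 fell, with a median of 0.41. S1pr3 (1.86), Cd9 (0.79) and Myof (0.78), which are not restricted to B cells, rose, and Dtx1 (-0.68) fell. Cr2, which encodes a complement receptor of marginal zone B cells and of follicular dendritic cells, did not pass the test (0.04, edgeR adjusted p 0.884). Of 8 plasma cell genes, 4 fell and 2 rose, with a median of -0.79. Mzb1 and Jchain, which serve antibody assembly, fell (-1.28 and -0.97), and Prdm1 and Sdc1, which other cells also express, rose (1.48 and 0.37).

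Marker lists of other cell types were measured beside these. T cell markers had a median of -1.57, with 11 of 12 called lower. As deposited, Cd3g and Cd3d, chains of the T cell receptor complex, fell most (-1.98 and -1.83). Cd5 and the co-receptor gene Cd8a fell least (-1.28 and -0.99). Cd3g carries a constant. On restored counts Cd3g was at -1.73, against -1.88 for Cd3d, and neither Cd3g nor Cd5 kept its place in this order. With the number as a block, Cd4, a co-receptor gene like Cd8a, was called higher (edgeR adjusted p 0.0371). Without the block it was at 0.30 (edgeR adjusted p 0.0669). Which cells held the Cd4 RNA was not tested. Of 8 neutrophil markers, 7 fell and 1 rose, with a median of -1.58. The calprotectin genes S100a8 and S100a9 fell (-1.85 and -1.77), as did Ltf, which encodes lactoferrin (-1.24), while the chemokine receptor gene Cxcr2 rose (1.97). Of 8 plasmacytoid dendritic cell markers 5 fell and 2 rose, with a median of -0.88. Cox6a2 and Klk1 had the lowest fold changes (-1.79 and -1.57). Each was under the filter's count minimum (0.686 CPM) in 1 size-selected sample, and only whole spleen reached it in all 8. Both are among the 5 that fell, so that count and the median rest partly on them. Bst2, an interferon-inducible gene, and the transcription factor gene Tcf4 rose (1.30 and 0.30). All 5 tested follicular dendritic cell markers rose, with a median of 5.73, from Coch (6.18) and Enpp2 (5.78) to Mfge8 (5.39) and Clu (3.88). The fibroblast markers summed to 1229 to 4009 CPM in the size-selected samples and 5.84 to 66.9 CPM in whole spleen. Of these 8 genes 6 passed the count filter only through the size-selected samples, so that they had to differ, and their fold changes rest on few whole spleen counts. The growth factor receptor gene Pdgfra had 0 to 9 counts in a whole spleen sample, Pdgfrb 0 to 25 and the matrix gene Lum 0 to 40, while Dcn, which passed in both groups, rose by 5.61. Among 8 endothelial markers, Tek and Emcn likewise passed only through the size-selected samples, with 0 to 42 and 3 to 15 counts in whole spleen. The other 6 passed in both groups and rose, among them Vwf (2.93) and Pecam1 (2.12). Of 8 macrophage markers 6 rose, with a median of 1.19, from the scavenger receptor gene Marco (2.72) and Csf1r (1.92) to Adgre1 (0.58) and C1qa (0.57). The 14 glia markers summed to 105 to 771 CPM in the size-selected samples and 8.93 to 27.5 CPM in whole spleen. Of the 12 that could be tested, 10 passed the count filter only through the size-selected samples, so no count of them is read as a result. The ion channel genes Kcna1 and Scn7a had 0 to 3 and 0 to 15 counts in a whole spleen sample, and Erbb3 and Ngfr had 10 to 81 and 6 to 26. With the number as a block Gfap went from an edgeR adjusted p of 0.0198 to 0.0933.

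**Figure D5:**
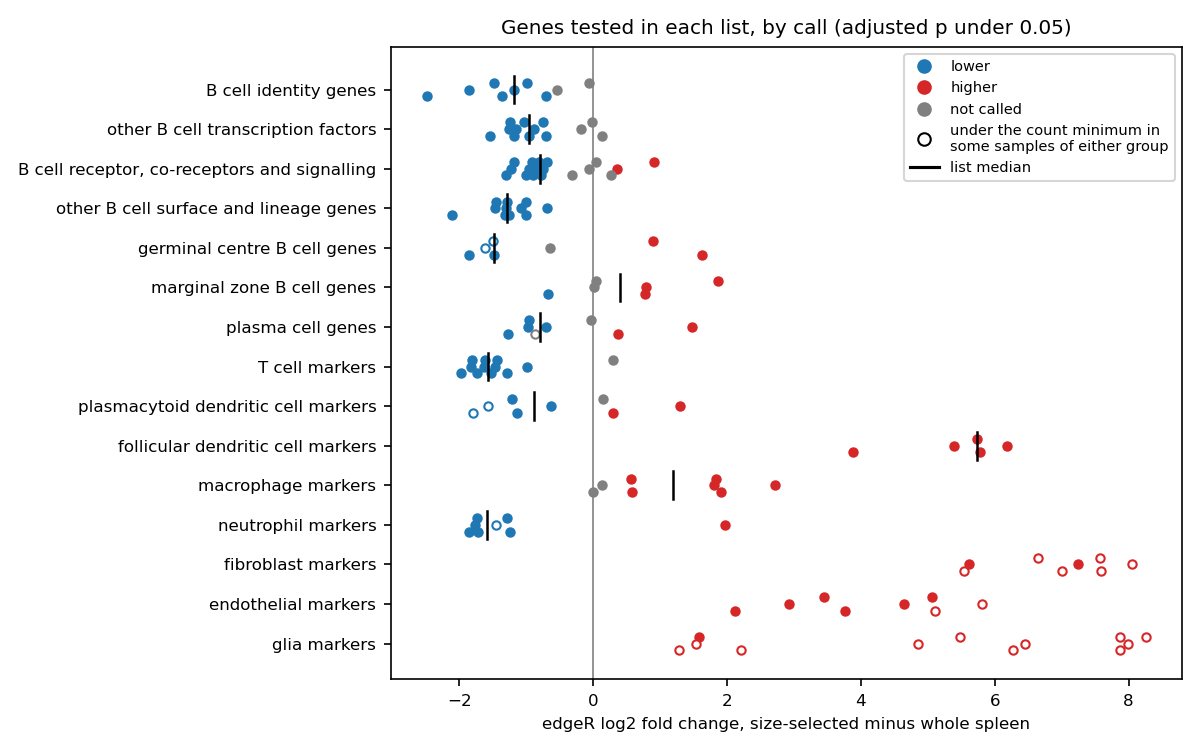
edgeR log2 fold change, size-selected minus whole spleen (horizontal axis), of every tested gene in 15 lists, coloured by call, with open circles for genes under the count minimum in some samples. A black line marks a list's median where no gene passed only through the size-selected samples, and it lies at -1.18 for the B cell identity genes and -1.57 for T cell markers.

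The spread among samples was also used to find genes that varied like the 9. Over the 16 samples, with each group centred on its mean, the 5 genes of 9298 ranked whose log2 CPM tracked the mean of the 9 most closely were Ighd (r = 0.98), Cd69 (r = 0.98), Ero1lb (r = 0.97), Gpr18 (r = 0.97) and Tfam (r = 0.97). Without number 427 the r values were 0.96, 0.96, 0.94, 0.96 and 0.95 over 14 samples. The likeness was closer in the size-selected samples, with r of 0.98 to 0.99, than in whole spleen, where r was 0.79 for Ighd, 0.49 for Cd69, 0.58 for Ero1lb, 0.79 for Gpr18 and 0.71 for Tfam (8 samples each). In whole spleen some of the 9 ran against their own mean, namely Cd79b (r = -0.61), Pou2af1 (r = -0.52) and Spib (r = -0.25). All of these r values are descriptions, since all genes of a sample share 1 library. In the fraction comparison the 5 genes had log2 fold changes of -1.30, -0.91, -0.67, -1.32 and -1.15. Ighd encodes the heavy chain of IgD on mature B cells, and Cd69 an activation marker of lymphocytes.

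Sex was compared within each fraction, with 4 samples a sex. In whole spleen, 0 of the 9 genes passed the test (0.194% of 13383 genes did), although 6 had an unadjusted p under 0.05, as did 16.1% of all genes. Cd22 was at 70.2 to 118 CPM in females and 109 to 232 CPM in males, a female minus male log2 difference of -0.75 (SE 0.23, edgeR adjusted p 0.154). Without number 427, the highest sample for Cd22, it was -0.45 (edgeR adjusted p 0.134). Cd79a was at 2378 to 2763 CPM in females and 2738 to 3834 CPM in males (-0.40, SE 0.12, edgeR adjusted p 0.159). Cd79b had the opposite sign, with 1454 to 2082 CPM in females and 1209 to 1708 CPM in males (0.37, SE 0.14, edgeR adjusted p 0.24).

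The sexes overlapped for those 3 genes and did not overlap in whole spleen for 2 of the 9, against 9.18% of all genes tested. Pou2af1 ranged from 480 to 546 CPM in females and from 368 to 464 in males, and Ms4a1 from 455 to 541 CPM in females and from 550.04 to 664 in males. Their log2 differences were 0.26 and -0.24 (edgeR adjusted p 0.278 and 0.31). Pax5 differed by -0.80 (edgeR adjusted p 0.181), with 3 low female samples and number 436 at 55.9 CPM among the males. Without number 436 the Pax5 difference was -1.16 (edgeR adjusted p 0.0448), where 0.635% of all genes were called. Without number 427 that of Cd79a was -0.48 (edgeR adjusted p 0.0321), where 1.91% of all genes were called. DESeq2 called Cd22 and Cd79a (DESeq2 adjusted p 0.0274 and 0.0303), and with them 518 genes, 4.11% of those it gave an adjusted p.

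In the size-selected samples 0 of the 9 genes differed by sex (0.0397% of 15127 genes did), and 1 had an unadjusted edgeR p under 0.05, as did 4.18% of all genes. The female minus male log2 differences ran from -0.75 for Cd22 to 0.08 for Cd79b, with standard errors of 0.15 to 0.43. The samples with the highest and the lowest summed levels, numbers 408, 435 and 427, are all male. For the interaction, which asks whether the fraction difference itself differs between the sexes, edgeR called 0 of the 9 genes and 0 of 15760 genes (0%). At an unadjusted p under 0.05 it had 0 of the 9 and 744 of all genes. The 95% interval of the interaction was -0.51 to 0.52 on the log2 scale for Bcl6, the narrowest of the 9, -1.02 to 0.35 for Ms4a1, -1.31 to 0.59 for Fcer2a and -0.84 to 1.14 for Pax5.

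Totals were 13119992 to 19944440 estimated counts in the size-selected samples and 12153770 to 16282454 in whole spleen. The lowest value of the 9 genes in any sample was 66.8 estimated counts, for Pax5 in the size-selected sample of number 445.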

How the data were processed

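RNA-seq values of 8 size-selected and 8 whole spleen samples were used. The deposited table gives estimated counts per gene. The submitters' processing notes name Trim Galore, STAR, RSEM, DESeq and mm10, without roles or versions, and the annotation is not given in the sources used here. A second deposited table holds the authors' comparison, and per the file headers it has a mean signal, log2 fold changes, a test score, p-values and group means in TPM and FPKM. It was used only to look up the genes. Values of 3898 genes had been multiplied by constants in the 8 size-selected columns, as their decimals show, and restored counts divide these out.

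Estimated counts were rounded and tested with edgeR 4.0.16 in R 4.3.3 (filterByExpr with a minimum count of 10, TMM, quasi-likelihood F test, Benjamini-Hochberg over all genes, threshold 0.05). CPM values use TMM-scaled totals, and log2 CPM a prior count of 2. The 95% intervals use the t distribution with edgeR's total degrees of freedom. Level per kb uses the union of exons in GENCODE M21 on GRCm38, which also gave coordinates. Ratios to Cd79a were tested by exact permutation. The scripts were tested on simulated data.

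The 9 genes and all gene lists were chosen with earlier results of these data known. Genes named are the 9, from each list the 2 lowest and 2 highest fold changes among called genes, and the 5 genes most like the mean of the 9 (mean log2 CPM of at least 3). Cr2, Cd4, Gfap and Tnfrsf17, outside the rule, were chosen after their values were seen. Alternatives were RLE scaling, library totals, no count filter, a minimum count of 50, DESeq2 1.42.0, limma-voom (limma 3.58.1), the replicate block, sex as a covariate, restored counts, a prior count of 0.5 and leaving out each number.

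The shared number pairs the samples. Deviations from the group means correlated for every number, with a mean r of 0.21 (0.12 to 0.38, across genes, which are not independent replicates), against -0.03 for samples of different numbers. The number of columns of other samples was 0, so none was left out.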

Additional observations from a re-analysis of the deposited data

Results flagged for a closer look

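Among 18 sets of 8 samples (9 genes in 2 groups), 3 held a sample far from the other 7, where chance gives about 1 in 20 sets, or 0.9 here. All 3 are the size-selected sample of number 427, so they share a library. Its log2 CPM was 6.53 for Pou2af1, against 7.67 to 8.31 in the other 7 samples. For Fcer2a it was 4.39, against 5.82 to 6.81, and for Cd79b 7.47, against 8.84 to 9.95. The gap to the nearest sample was 0.643, 0.590 and 0.551 of the range, above the limit for 8 samples (Dixon, 95%).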

How the results depend on the processing

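Of 153 log2 fold changes of the 9 genes between fractions under 17 alternative settings each, 148 kept their direction and side of the threshold and 0 lost a call. Bcl6 changed sign with library totals (0.060). Cd22 gained a call 4 times: with DESeq2 (adjusted p 0.049), sex as a covariate (0.0277), the replicate block (0.0303) and without number 435 (0.0117). Its adjusted p over all alternatives ran from 0.0117 to 0.329. The number of the 9 called lower was 7 or 8 in each setting, while the share of all genes called lower ran from 18.2% with no count filter and 23.7% with library totals to 32% with DESeq2. The replicate block changed no other call among the 9 between fractions. In the other lists it ended the call of Gfap and added Cd4 and Tnfrsf17 (adjusted p 0.0933, 0.0371 and 0.0118), and of all genes 4545 were called lower in place of 4409. It gave 8 of 8 ratios to Cd79a called in place of 6. Among them Pax5 was lower relative to Cd79a, and Cd79b differed by only 0.06 on restored counts. With each number left out in turn, 6 to 7 ratios were called. No share of all genes is given for these counts of ratios, so they are not read as results about the 9 genes.

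Sex results were less stable. In whole spleen, 26 genes of all tested were called, 518 with DESeq2 and 7 to 261 when each sample was left out, the highest without number 427. The number of the 9 called was 2 with DESeq2 and 0 to 1 with a sample left out. The Bcl6 sex difference ran from -0.048 to 0.20 when each sample was left out (-0.032 without number 435, -0.0088 without number 445). In the size-selected samples 6 genes were called and 22 with DESeq2. For the interaction 0 genes were called, 3 with DESeq2, 3 with the replicate block, and 0 to 1 with a number left out. The cause of these moves was not tested. Pax5, at a mean of 8.18 CPM in the size-selected samples, is the gene whose counts are lowest there.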
